A study of Mus musculus with 24 samples.

Results

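MYT1L occupancy was examined at the promoters of long intergenic noncoding RNA (lincRNA) genes in the mouse cortex. LincRNA genes lie mostly between protein-coding genes and give transcripts with no long reading frame. Members were all genes of type lincRNA in the GENCODE annotation of mm10 with no protein-coding transcription start site (TSS) within 5 kb of their own TSS. The rule kept 5143 of 5854 lincRNA genes, and 711 were left out for a nearby protein-coding TSS. The promoter of each member was the window from 1 kb upstream to 1 kb downstream of its TSS, taken as the 5′ end of the gene record. Some windows overlapped, so that the 5143 windows made 5023 separate regions, and 191 of the windows touched the body of a protein-coding gene. The members lay far from coding genes, with a median distance of 79.9 kb to the nearest protein-coding TSS and quartiles of 30.5 and 195 kb.

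MYT1L is a zinc finger transcription factor made by neurons, and its binding was read by CUT&RUN, where an antibody tethers a nuclease that cuts out the DNA around the bound protein. The labels give all mice as C57BL/6J of unknown sex, whereas the methods describe a Myt1l mutant line made in and bred to C57BL/6N. The groups were wild-type (WT) animals at embryonic day E18.5, at birth (P0) and as adults of 3 months, and adults heterozygous (HET) for Myt1l, by the study's methods a germline frameshift mutation of 1 allele. The labels name the tissue as cortex at E18.5 and as prefrontal cortex in the other 3 groups, whereas the methods name prefrontal cortex at every age. Each group had 3 MYT1L and 3 control IgG libraries, 24 in all, and the MYT1L libraries of a group were merged into 1 list of bound sites with positions only. The cells were a suspension of whole tissue, so neurons and other cells contributed together. No library had a value of its own, the IgG libraries are not analysed here, and sequencing depth was unknown. Accordingly no value below has a replicate error, no difference between lists was tested, and the 95% intervals given (exact Clopper-Pearson) cover counting error only. By the labels, E18.5 and P0 were sequenced in run 1 and both adult groups in run 2, so age and run cannot be told apart. The lists hold no expression values, and the tissue was therefore not checked against marker genes.

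Promoters are the stretches around a TSS where polymerase and transcription factors assemble. In mammals, promoters of broadly expressed genes are mostly rich in CpG dinucleotides, while CpG-poor promoters tend to serve genes restricted to a tissue. Many lincRNAs are expressed in few tissues, several act in the nucleus, such as Malat1, Neat1 and Xist, and others are host transcripts from which microRNAs (miRNAs) are cut. MYT1L binds the core sequence AAAGTT, which reads AACTTT on the other strand.

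The promoter stretches below were chosen to show the bound DNA itself, and all are from GRCm38, the assembly of mm10, read 5′ to 3′ on the strand of the lincRNA gene. Each is the longest stretch of the window covered by sites of the most lists, and of a longer one 300 bases were taken, placed on the core motif nearest its middle where it held one and on its middle otherwise. Capitals mark AAAGTT or AACTTT. The first 3 come from the only members occupied in all 4 lists: Gm6410 (chr8:4677805-4678104, 657 to 358 bp upstream of the TSS), shared by all 4, 6720427I07Rik (chr13:48546676-48546813, 313 to 176 bp upstream), shared by E18.5, adult WT and adult HET, and C130071C03Rik (chr13:83721301-83721374, 80 to 7 bp upstream), shared by E18.5, P0 and adult HET. Gm3764 (chr3:88206603-88206902, 210 bp upstream to 89 bp downstream) is a miRNA host bound at both perinatal ages. Malat1 (chr19:5802146-5802445, 227 to 526 bp downstream, within the transcript) was shared by the 3 WT lists, and Neat1 (chr19:5845425-5845724, 246 bp upstream to 53 bp downstream) by E18.5 and P0. Gm49415 (chr15:68754992-68755291, 508 to 209 bp upstream) is a CpG-poor promoter bound in both adult lists.
Gm6410: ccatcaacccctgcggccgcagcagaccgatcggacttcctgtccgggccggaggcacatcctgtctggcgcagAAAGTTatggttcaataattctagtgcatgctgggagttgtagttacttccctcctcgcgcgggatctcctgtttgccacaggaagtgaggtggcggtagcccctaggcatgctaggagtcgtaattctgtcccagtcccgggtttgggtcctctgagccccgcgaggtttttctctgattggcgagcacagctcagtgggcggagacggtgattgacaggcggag
6720427I07Rik: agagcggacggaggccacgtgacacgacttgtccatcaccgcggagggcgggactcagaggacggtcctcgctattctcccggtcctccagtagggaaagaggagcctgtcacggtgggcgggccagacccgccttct
C130071C03Rik: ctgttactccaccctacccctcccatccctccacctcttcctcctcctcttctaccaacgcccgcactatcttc
Gm3764: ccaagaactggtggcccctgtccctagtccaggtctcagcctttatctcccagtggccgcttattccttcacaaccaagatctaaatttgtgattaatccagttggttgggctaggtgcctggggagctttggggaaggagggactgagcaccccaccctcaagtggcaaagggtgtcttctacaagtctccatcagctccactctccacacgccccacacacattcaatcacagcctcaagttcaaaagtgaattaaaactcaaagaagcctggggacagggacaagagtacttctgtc
Malat1: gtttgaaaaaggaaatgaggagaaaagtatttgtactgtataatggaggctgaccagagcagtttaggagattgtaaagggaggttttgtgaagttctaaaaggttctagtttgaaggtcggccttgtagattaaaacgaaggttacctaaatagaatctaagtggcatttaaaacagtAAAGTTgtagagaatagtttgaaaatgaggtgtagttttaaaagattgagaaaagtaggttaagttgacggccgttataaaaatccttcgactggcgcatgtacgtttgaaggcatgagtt
Neat1: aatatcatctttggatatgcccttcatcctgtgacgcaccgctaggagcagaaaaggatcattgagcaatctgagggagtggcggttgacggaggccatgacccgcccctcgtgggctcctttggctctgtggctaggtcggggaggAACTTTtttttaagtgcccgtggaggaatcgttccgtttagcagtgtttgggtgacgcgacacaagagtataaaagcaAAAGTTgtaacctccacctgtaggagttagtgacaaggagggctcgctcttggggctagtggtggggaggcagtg
Gm49415: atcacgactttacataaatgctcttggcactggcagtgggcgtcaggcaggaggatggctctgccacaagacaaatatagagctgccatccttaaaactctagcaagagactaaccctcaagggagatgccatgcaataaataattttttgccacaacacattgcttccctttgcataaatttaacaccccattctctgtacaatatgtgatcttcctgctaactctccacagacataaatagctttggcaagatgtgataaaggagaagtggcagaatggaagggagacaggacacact
The Gm6410 stretch held 1 core motif and 19 CpG dinucleotides, the Neat1 stretch 2 core motifs and 13 CpG, and the Malat1 stretch 1 core motif and 7 CpG. The other 4 stretches held no core motif, and those of C130071C03Rik, Gm3764 and Gm49415 had 2 CpG each. Because the Malat1 and Neat1 stretches were placed on a motif, these counts are no measure of how often bound promoters hold one.

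LincRNA promoters were rarely bound, and with windows of 1 kb on each side they were bound most often in the P0 list. A promoter was called occupied where at least 1 bp of its window was covered by a site. In the E18.5 list 160 of 5143 lincRNA promoters were occupied, or 3.11% (2.65 to 3.62), where 12.6% of the promoters of all 55413 annotated genes were. At P0 321 lincRNA promoters were occupied, or 6.24% (5.60 to 6.94), beside 19.4% of all genes. In adult WT cortex 146 were, or 2.84% (2.40 to 3.33), beside 6.34% of all genes. In adult HET cortex 173 were, or 3.36% (2.89 to 3.89), beside 5.56% of all genes. The lincRNA share was thus below that of all genes in each list, and the P0 share was the highest of the 4. With windows of 5 kb on each side the adult HET share was higher, at 14.8% beside 13.5% at P0. When at least 100 bp of the window had to be covered, 1.69% of lincRNA promoters were left in adult HET.

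LincRNA promoters were occupied less often than protein-coding promoters in every list, and as a ratio the gap was widest at E18.5 and narrowest in adult HET. Of 21938 protein-coding promoters, cut to the same window, 25.1% were occupied at E18.5, 37.5% at P0, 10.5% in the adult WT and 7.58% in the adult HET list. These shares were 8.07, 6.00, 3.70 and 2.25 times those of the lincRNA promoters. The 711 lincRNA genes left out for a coding TSS within 5 kb resembled coding genes more than they did the members, with 23.8% occupied at E18.5, 36.2% at P0, 12.2% in the adult WT and 8.58% in the adult HET list.

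Tiles of the same length over the whole genome gave the lower reference. The E18.5 and P0 lists touched 1.41% and 3.09% of 1322622 gap-free tiles, so lincRNA promoters were occupied 2.20 and 2.02 times as often as a tile. In adult WT the tile share was 2.53% and the ratio 1.12, with the lincRNA interval reaching down to 2.40%. In adult HET the tile share was 4.39%, above the upper limit of 3.89% for lincRNA promoters, a ratio of 0.766. Relative to the genome at large, lincRNA promoters therefore held more sites beyond counting error in the perinatal lists only.

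**Figure D1:**
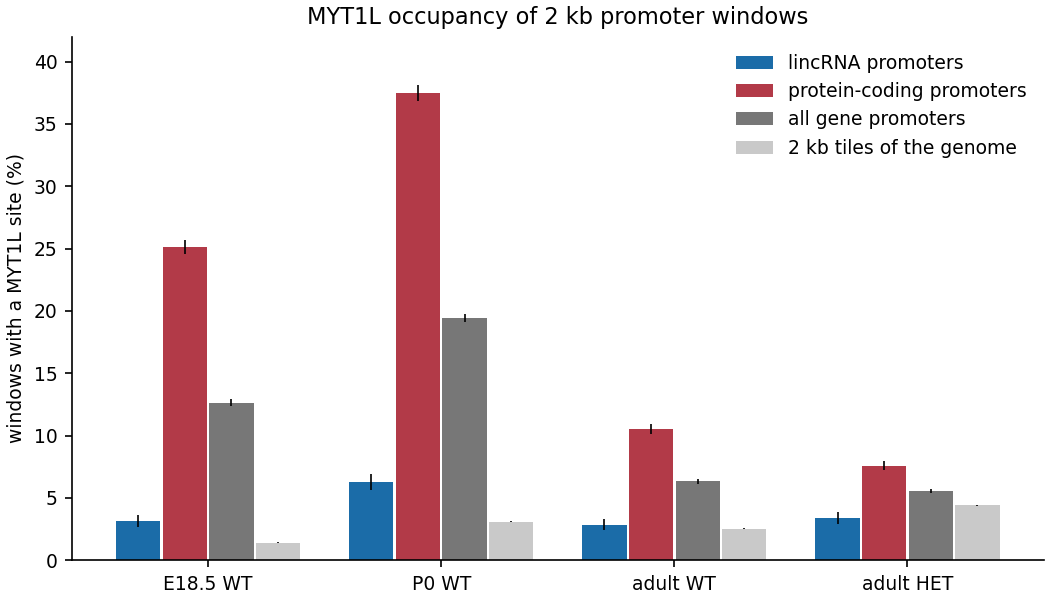
Share of 2 kb windows with at least 1 bp of a MYT1L site (y axis, percent) in each of the 4 site lists (x axis), for lincRNA promoters, protein-coding promoters, all gene promoters and genome tiles; error bars are exact 95% intervals. LincRNA promoters ranged from 2.84% to 6.24% and lay below the coding promoters in every list.

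In all, 573 lincRNA promoters (11.1%) were occupied in some list and 4570 in none. Of the 573, 382 were occupied in 1 list, 191 in 2 or more and 33 in 3 or more. The commonest patterns were P0 only with 151 promoters, adult HET only with 133, E18.5 with P0 with 117 and adult WT only with 86. By age, 280 were occupied only in perinatal lists, 238 only in adult lists and 55 in both.

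The perinatal sets were nested, while most promoters of the adult sets had no perinatal site. Of the 160 promoters occupied at E18.5, 146 (91.3%, 85.8 to 95.1) were also occupied at P0, and for protein-coding promoters the share was 90.8%. These 146 made 45.5% (39.9 to 51.1) of the P0 set, and only 12 promoters were found at E18.5 alone. In contrast, 39 of the 146 promoters of the adult WT list (26.7%, 19.7 to 34.7) were occupied at P0, against 73.1% for coding promoters. The same 39 made 12.1% of the P0 set. Of all lincRNA promoters 6.24% were occupied at P0, and of all coding promoters 37.5%. The shares of the E18.5 and adult WT sets found at P0 lay above these values for both types of promoter.

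Most lincRNA promoters of each adult genotype were not shared with the other. Of the adult WT set, 26 promoters (17.8%, 11.98 to 24.99) were also in the HET set, of which they made 15.0% (10.1 to 21.2). In 14 of the 26 the sites of the genotypes shared a base. At coding promoters the lists shared 604, or 26.2% of the WT and 36.3% of the HET set, and in 459 of these the sites touched. The HET list occupied 3.36% of all lincRNA and 7.58% of all coding promoters, below the shared part of the WT set for both types. No replicate spread was available for either adult list. Whether the overlap of the genotypes is below that of repeated libraries of 1 genotype was therefore not tested.

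Sites at lincRNA promoters were of ordinary width but less often placed on the TSS. The lists had 165, 409, 156 and 181 sites in these windows for E18.5, P0, adult WT and adult HET, or 1.14%, 1.00%, 0.485% and 0.318% of their sites. Median widths were 654, 329, 183 and 107 bp, next to 593, 276, 167 and 108 bp over all sites of each list. Sites covered a median of 558.5 bp of an occupied window at E18.5, 358 bp at P0, 170 bp in the adult WT and 101 bp in the adult HET list. Windows with 1000 bp or more covered numbered 23 at E18.5, 28 at P0, 2 in the adult WT and 0 in the adult HET list.

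The TSS itself lay under a site in 53.1% of occupied lincRNA promoters at E18.5, 42.1% at P0, 18.49% in the adult WT and 6.94% in the adult HET list. The shares at coding promoters were 81.3%, 69.1%, 46.9% and 22.6%. Coverage peaked 100 to 51 bp upstream of the TSS in the 3 WT lists, at 56.9%, 43.9% and 18.52% of occupied windows. The peak was 2.66, 2.76 and 2.01 times the coverage at the window edges, as against 7.72, 6.90 and 12.7 times at coding promoters. In the HET list the 2 highest bins were nearly equal, at 8.02% 100 to 149 bp downstream and 7.95% 100 to 51 bp upstream. The highest was 1.57 times the edges, and the curve was close to flat. At coding promoters the HET list peaked upstream of the TSS, at 8.01 times the edges.

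**Figure D2:**
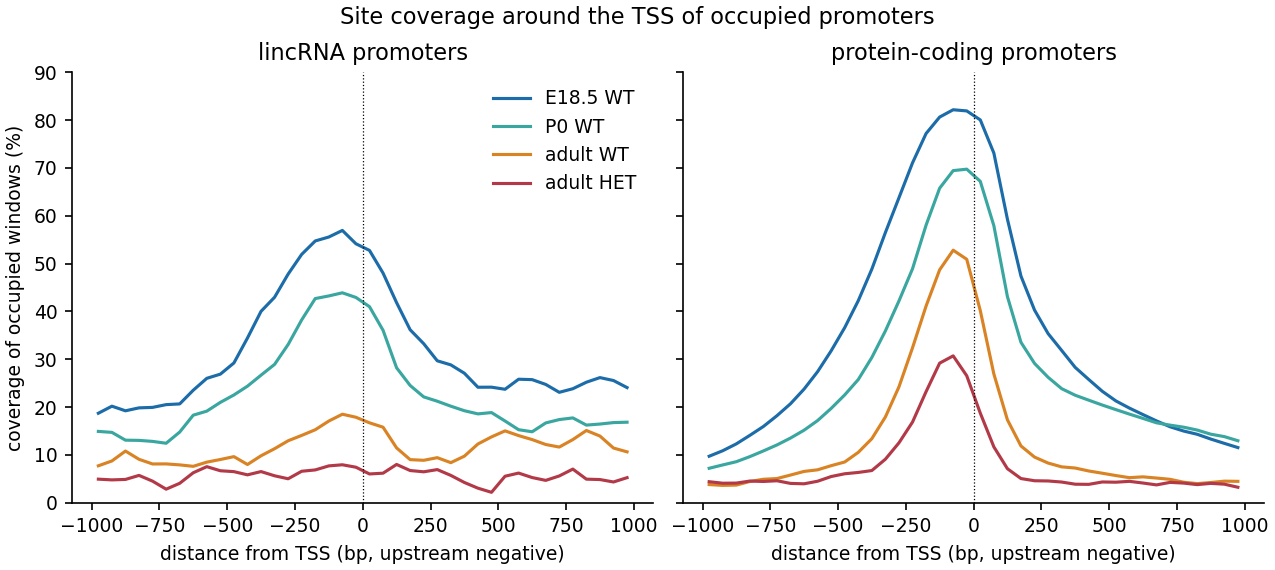
Percent of occupied windows covered by a site (y axis) in 50 bp bins by distance from the TSS (x axis, bp), for lincRNA promoters on the left and protein-coding promoters on the right, 1 line per list. LincRNA promoters showed lower and broader peaks than coding promoters, and the adult HET line was nearly flat.

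Occupancy followed the CpG content of the promoter in the perinatal lists. A window was classed CpG-high where some 500 bp stretch had an observed over expected CpG ratio above 0.75 and over 55% GC, CpG-low where no stretch exceeded a ratio of 0.48, and intermediate otherwise. Only 161 lincRNA promoters (3.13%) were CpG-high, 1261 were intermediate and 3721 (72.4%) CpG-low. Of the CpG-high promoters 26.7% (20.05 to 34.24) were occupied at E18.5 and 46.6% (38.7 to 54.6) at P0. The CpG-low promoters reached 1.13% (0.815 to 1.52) at E18.5 and 2.79% (2.29 to 3.38) at P0, and intermediate promoters lay between at 5.95% and 11.3%.

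In the adult lists the gradient was smaller in WT and was not seen in HET. CpG-high lincRNA promoters were occupied in 8.07% (4.37 to 13.4) of cases in the adult WT and 3.11% (1.02 to 7.10) in the adult HET list. CpG-low promoters gave 2.47% (2.00 to 3.02) in the adult WT and 3.04% (2.51 to 3.64) in the adult HET list. Intermediate promoters gave 3.25% (2.34 to 4.39) and 4.36% (3.30 to 5.64). In adult WT the CpG-high share was thus above the CpG-low share beyond counting error, whereas in adult HET the intervals of all 3 classes overlapped. Among coding promoters the HET list kept a gradient, from 10.4% of CpG-high to 4.07% of CpG-low promoters.

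Within a class, lincRNA and coding promoters came closer together. CpG-low coding promoters were occupied in 1.01% of cases at E18.5, 2.54% at P0 and 2.34% in adult WT, inside the intervals of the CpG-low lincRNA promoters. In adult HET their share, 4.07% (3.62 to 4.55), lay above the lincRNA interval of 2.51 to 3.64%. Intermediate coding promoters were occupied in 16.3% of cases at E18.5, 28.2% at P0, 9.002% in the adult WT and 6.40% in the adult HET list. CpG-high coding promoters reached 44.5%, 64.2%, 16.5% and 10.4%, and in both of these classes the coding share lay above the lincRNA interval in every list. With the coding promoters reweighted to the CpG mix of the lincRNA promoters, their share would be 6.12% at E18.5, 10.8% at P0, 4.42% in the adult WT and 4.84% in the adult HET list. The ratio to the lincRNA share then fell from 8.07 to 1.97 at E18.5, from 6.00 to 1.72 at P0, from 3.70 to 1.56 in the adult WT and from 2.25 to 1.44 in the adult HET list.

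**Figure D3:**
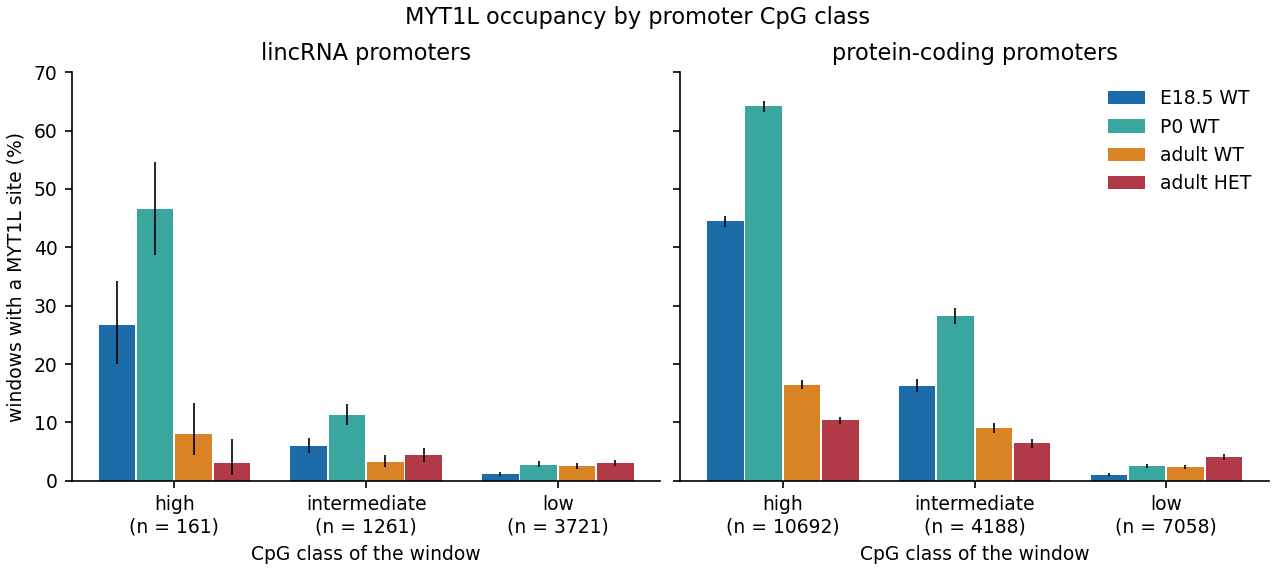
Percent of promoter windows with a MYT1L site (y axis) by CpG class of the window (x axis, with the number of windows), for lincRNA promoters on the left and protein-coding promoters on the right, 1 bar per list; error bars are exact 95% intervals. Of the CpG-high lincRNA promoters 46.6% were occupied at P0 and 3.11% in adult HET.

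The promoters bound only around birth and only in the adult were of different composition. Of the 280 perinatal-only promoters, 65 (23.2%, 18.4 to 28.6) were CpG-high and 91 (32.5%, 27.0 to 38.3) CpG-low. Of the 238 adult-only promoters, 3 (1.26%, 0.261 to 3.64) were CpG-high and 169 (71.0%, 64.8 to 76.7) CpG-low, close to the 72.4% of all members. The 55 promoters bound at both times were 21.8% CpG-high. Among the 10 most covered promoters of each list, CpG-low ones numbered 1 at E18.5, 0 at P0, 7 in the adult WT and 7 in the adult HET list.

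Windows made up mostly of repeats were rarely occupied in the WT lists. Of 927 windows with 50% repeat or more, 0 were occupied at E18.5 (up to 0.397%), 3 at P0 and 5 in adult WT. In adult HET 22 were, or 2.37% (1.49 to 3.57), beside 3.58% of the windows with less repeat. The median repeat content of occupied windows was 16.2% at E18.5, 16.7% at P0, 17.9% in the adult WT and 20.99% in the adult HET list, and 23.7% in windows of no list. Occupancy varied less with the distance to the nearest coding gene. At P0 8.65% of members 5 to 20 kb from a coding TSS were occupied, 6.95% at 20 to 100 kb and 4.64% (3.799 to 5.594) beyond 100 kb, and in adult HET the shares were 2.73%, 3.62% and 3.38%.

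The share of sites with the MYT1L core motif at lincRNA promoters was close to that over all sites. AAAGTT, on either strand, lay within 75 bp of the midpoint in 16.97% (11.6 to 23.6) of sites at lincRNA promoters at E18.5, 14.9% (11.6 to 18.7) at P0, 12.2% (7.49 to 18.4) in the adult WT and 13.3% (8.68 to 19.1) in the adult HET list. Over all sites of each list the shares were 15.2%, 14.6%, 13.8% and 14.5%. Sites at coding promoters held it less often, in 9.16%, 9.995%, 7.62% and 8.35% of cases. In windows of the same length centred on the TSS, 7.37% (6.67 to 8.12) of all members held the motif. The nearest site midpoint lay a median of 289 bp (P0) to 514.5 bp (adult WT) from the TSS, so these windows are no matched reference. Most sites at lincRNA promoters thus carried no exact core motif near their midpoint. Anywhere in the promoter window, AAAGTT lay in 80.0%, 70.1%, 74.7% and 76.3% of occupied members from E18.5 to adult HET. Of members in no list 71.2% held it there.

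Words of other factor families were found at shares close to those of all sites. The nuclear factor I half-site TTGGCA, on either strand and in the same 75 bp on each side, was found at 11.5% of E18.5 and 12.7% of P0 sites at lincRNA promoters, and in 13.7% and 12.2% of all sites. The E-box CAGATG was found at 11.5%, 10.02%, 17.9% and 14.4% of lincRNA promoter sites from E18.5 to adult HET, beside 13.8%, 12.9%, 14.5% and 10.8% of all sites. The AP-1 word TGACTC lay at 7.27%, 8.56%, 7.69% and 12.2% of them, beside 6.89%, 6.62%, 9.93% and 7.70% of all sites, and every one of these all-site values but that of AP-1 in adult HET fell within the lincRNA interval. In the window of that length around the TSS, 9.24% of all members held the nuclear factor I word, 12.1% the E-box and 8.96% the AP-1 word. The words are of equal length, differ on both strands, and were counted once per site.

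Host genes of miRNAs were occupied more often than other members around birth. Within the CpG-high and intermediate classes their perinatal shares were higher too, but with intervals that overlapped. Members that hold a miRNA gene on their own strand numbered 59. Of these 12 (20.3%, 10.98 to 32.83) were occupied at E18.5 and 18 (30.5%, 19.2 to 43.9) at P0, and all 12 of E18.5 were among the 18. The other 5084 members reached 2.91% (2.47 to 3.41) and 5.96% (5.32 to 6.65). In the adult lists 4 and 3 hosts were occupied, with intervals that overlapped those of the other members. Within the CpG-high class 8 of 14 hosts (57.1%, 28.9 to 82.3) and 35 of 147 other members (23.8%, 17.2 to 31.5) were occupied at E18.5. At P0 11 of 14 hosts (78.6%, 49.2 to 95.3) and 64 of 147 other members (43.5%, 35.4 to 52.0) were. In the intermediate class 4 of 21 hosts and 71 of 1240 other members were occupied at E18.5. At P0 6 of 21 hosts (28.6%, 11.3 to 52.2) and 136 of 1240 other members (10.97%, 9.28 to 12.8) were, and in the CpG-low class 1 of 24 hosts. The intervals of hosts and other members overlapped in each CpG class and list, and 14 of 59 hosts but 147 of 5084 other members were CpG-high. Overlapping intervals do not show that shares are equal, and the difference within a class was not tested.

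The 3 genes of miR-9, a miRNA that promotes neuronal differentiation, all lay in host transcripts with bound promoters. C130071C03Rik (chromosome 13, TSS at 83721381, plus strand) holds Mir9-2, 17.4 kb downstream of its TSS, and lies 68.5 kb from Mef2c. Its window was covered over 1628 bp at E18.5, 992 bp at P0, 64 bp in the adult WT and 74 bp in the adult HET list. The E18.5 site and 1 of 2 P0 sites spanned the TSS, the other P0 site lay 892 bp or more downstream, the HET site lay just upstream of it, and the adult WT site lay 896 bp downstream. Gm3764 (chromosome 3, TSS at 88206813, plus strand) holds Mir9-1 and was covered over 801 bp at E18.5 and 1342 bp at P0. Mir9-3hg (chromosome 7, TSS at 79500026, plus strand) holds Mir9-3 and was covered over 524 and 615 bp, with its main site 477 bp or more downstream of the TSS. Neither had a site in its window in the adult lists, and the nearest ones were an adult HET site 1.85 kb upstream of Gm3764 and an adult WT site 1.89 kb upstream of Mir9-3hg.

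Both members that hold genes of miR-124, an abundant miRNA of neurons, were likewise bound around birth. Mir124a-1hg was covered over 535 bp at E18.5 and 898 bp at P0, by sites on opposite sides of the TSS that did not touch. Mir124-2hg was covered over 341 bp at E18.5 and 1256 bp at P0, both across the TSS. Neither had a site in the adult windows, and the nearest adult HET sites lay 1.87 kb away at both.

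The host of 3 let-7 genes, miRNAs linked to the timing of differentiation, was bound in every list. 6720427I07Rik (chromosome 13, TSS at 48546500, minus strand) carries Mirlet7a-1, Mirlet7d and Mirlet7f-1 between 8.24 and 10.4 kb from its TSS. Coverage was 955 bp at E18.5, 527 bp at P0, 138 bp in the adult WT and 338 bp in the adult HET list. The adult sites lay within 366 bp upstream of the TSS, inside the E18.5 site, while the P0 sites lay 364 bp or more downstream.

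Mature miRNAs of the miR-9 hosts and of the let-7 host, 4 of the 21 hosts occupied in some list, are printed from RefSeq on GRCm38.p6 to show what these transcripts carry. Capitals mark the seed, bases 2 to 8. The 3 miR-9 genes give 1 mature form, and the 3 let-7 forms, from 1 host, share 1 seed.
mmu-miR-9-5p: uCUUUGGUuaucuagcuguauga
mmu-let-7a-5p: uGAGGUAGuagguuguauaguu
mmu-let-7d-5p: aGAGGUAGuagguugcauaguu
mmu-let-7f-5p: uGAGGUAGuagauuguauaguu

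Other hosts occupied at both perinatal ages were Mir670hg (Mir129-2 and Mir670) with 1717 and 684 bp, E130102H24Rik (Mir101a) with 1078 and 1064 bp, Gm20732 (Mir30d) with 611 and 266 bp, 2900076A07Rik (Mir1839), Gm37233 (Mir5103) and Ftx. At P0 alone there were sites at Mir17hg, the host of the growth-promoting miR-17 cluster, with 930 bp, and at Gm49317, which holds Mir100, Mir125b-1 and Mirlet7a-2, with 605 bp. Also at P0 alone were AL805899.1 (Mir31) and Gm20754 with 305 bp each, Gm3294 (Mir129-1) with 152 bp and A430106G13Rik (Mir181b-1) with 109 bp. Occupied in no list were 38 hosts, among them Mir155hg, whose miRNA acts in immune cells, the host of the skeletal muscle miRNAs Mir133b and Mir206 (Gm28653), of the epithelial Mir205 (4631405K08Rik), and of the pancreatic Mir216a and Mir217 (Gm12082). Of these, Mir155hg was CpG-high and the other three were CpG-low. The host of Mir138-2 (C78859), a miRNA of the brain, was not occupied either, and its promoter was CpG-low. Likewise unoccupied and CpG-low were Mirg, which holds 14 miRNA genes, among them Mir134 and Mir485, and A230057D06Rik, which holds 11, among them Mir344.

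**Figure D4:**
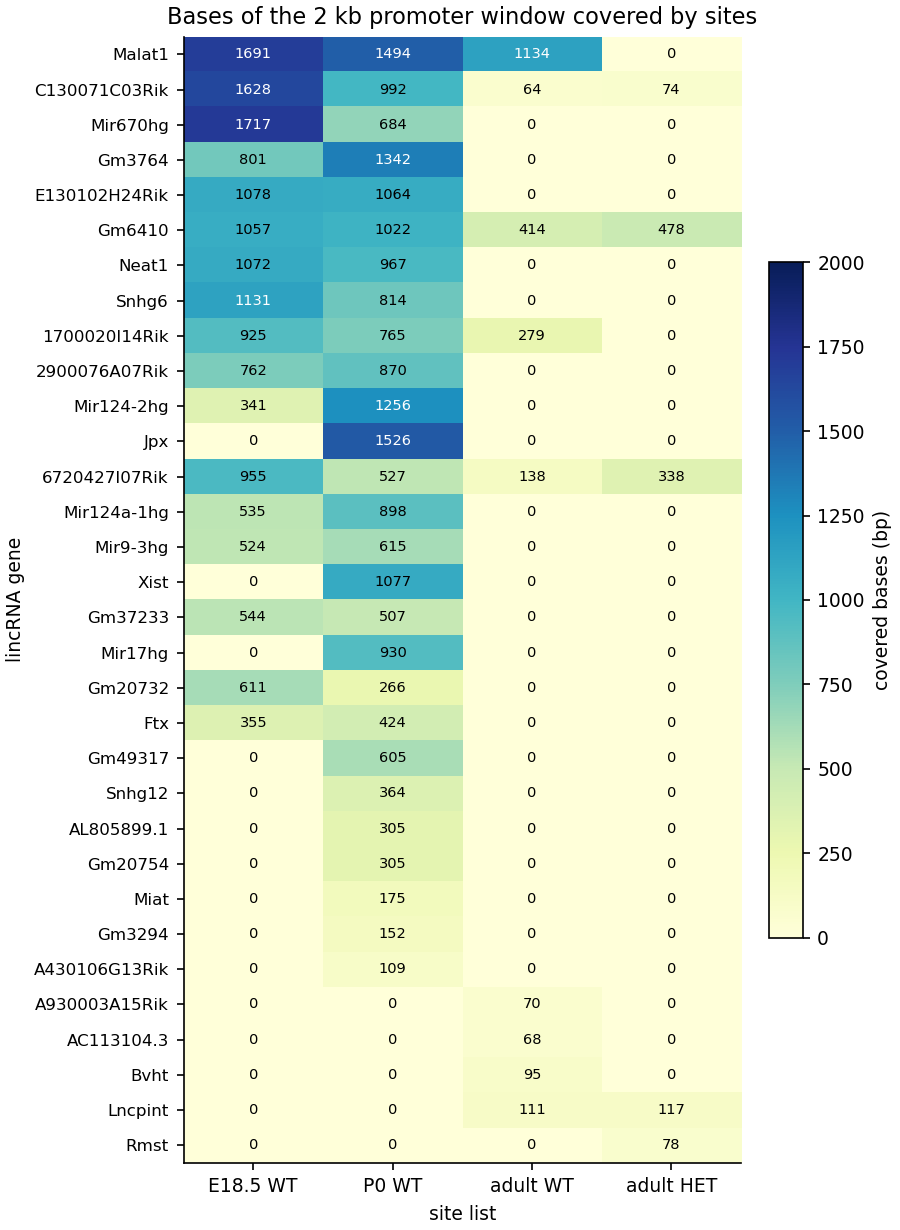
Bases of the 2 kb promoter window covered by sites (colour and printed number, bp) for miRNA hosts and fixed-list lincRNA genes with a site in some list, and for Gm6410, in rows, by site list, in columns. Coverage was highest in the E18.5 and P0 columns, and Malat1 at 1134 bp stood above the other genes shown in adult WT.

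Named lincRNA genes of known function were described from 4 fixed lists. Of their 85 genes 29 were members, and the others were of another annotation type, near a coding TSS or not found under that symbol. Of the 29, 9 were occupied at E18.5, 14 at P0, 5 in the adult WT and 3 in the adult HET list, and 17 in some list. Beside the 11.1% of all members occupied in some list this count is high, but such genes were listed with results of these data known.

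The nuclear lincRNAs Malat1 and Neat1, neighbours on chromosome 19, were among the strongly covered. Malat1, an abundant RNA of nuclear speckles (TSS at 5802672, minus strand), was covered over 1691 bp at E18.5, 1494 bp at P0 and 1134 bp in adult WT, the most of any lincRNA promoter in that list. The adult HET list had no site in its window, and the nearest lay 8.21 kb upstream. Neat1, the scaffold RNA of paraspeckles (TSS at 5845478, minus strand), was covered over 1072 bp at E18.5 and 967 bp at P0. Its nearest adult sites fell just outside the window, 1.07 kb upstream in WT and 1.44 kb upstream in HET.

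Of the snoRNA host and growth genes on the same list, Snhg6 was covered over 1131 bp at E18.5 and 814 bp at P0, and Snhg12 over 364 bp at P0 alone. Lncpint, an RNA induced by p53, showed the reverse, with 111 bp in adult WT, 117 bp in adult HET and none around birth. Its adult sites did not touch, as the WT site lay 786 to 896 bp downstream of the TSS and the HET site 617 to 501 bp upstream. No list had a site at the CpG-high promoters of 2900097C17Rik (Norad, which binds PUMILIO proteins), Pvt1, the neighbour of Myc, or Snhg20. The nearest sites lay 20.3 kb from 2900097C17Rik in adult WT, 1.41 kb downstream of Pvt1 in adult HET and 5.68 kb downstream of Snhg20 at P0.

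The X-inactivation genes had sites in their windows around birth only. Xist, the RNA that coats the inactive X chromosome (TSS at 103483254, minus strand), had 3 sites and 1077 bp at P0, 1 of them across the TSS. Its nearest E18.5 site began 1.01 kb downstream of the TSS, just past the window. Jpx, which activates Xist (TSS at 103493556, plus strand), had 3 sites and 1526 bp at P0, and Ftx, another RNA of the X-inactivation centre, had 355 bp at E18.5 and 424 bp at P0. An adult WT site lay 1.14 kb downstream of the Ftx TSS, also just past the window. Of the 90 members on the X chromosome, 1 was occupied at E18.5, 5 at P0, or 5.56% (1.83 to 12.5), and 0 in adult WT. In adult HET 6 were, or 6.67% (2.49 to 13.9). Of all members 6.24% were occupied at P0 and 3.36% in adult HET. The imprinted genes Meg3, Mirg and H19 had no site in their windows. The closest was a P0 site 2.09 kb upstream of H19.

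All 7 neural lincRNA members had a site in some list, where 11.1% of all members did, and 4 of the 7 were CpG-high. Among CpG-high members, 11 of 14 miRNA hosts and 69 of 147 others had a site in some list. The neural list was drawn up with results of these data known. Besides the miR-9 and miR-124 hosts on that list, 1700020I14Rik was covered over 925 bp at E18.5, 765 bp at P0 and 279 bp in adult WT. Miat, a nuclear RNA of neurons, had 175 bp at P0 alone, centred downstream of the TSS. Rmst, a lincRNA that associates with SOX2, had 78 bp in adult HET alone. Of 7 members known from other tissues, only the promoter of Bvht, a cardiac lincRNA, was occupied, over 95 bp in adult WT. Hotair, Trp53cor1, Lncenc1, Carmn, Chaer1 and Ptgs2os2 had none. Since 0 of these 7 were CpG-high, the lists also differed in CpG class, and its part in the counts was not tested.

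**Figure D5:**
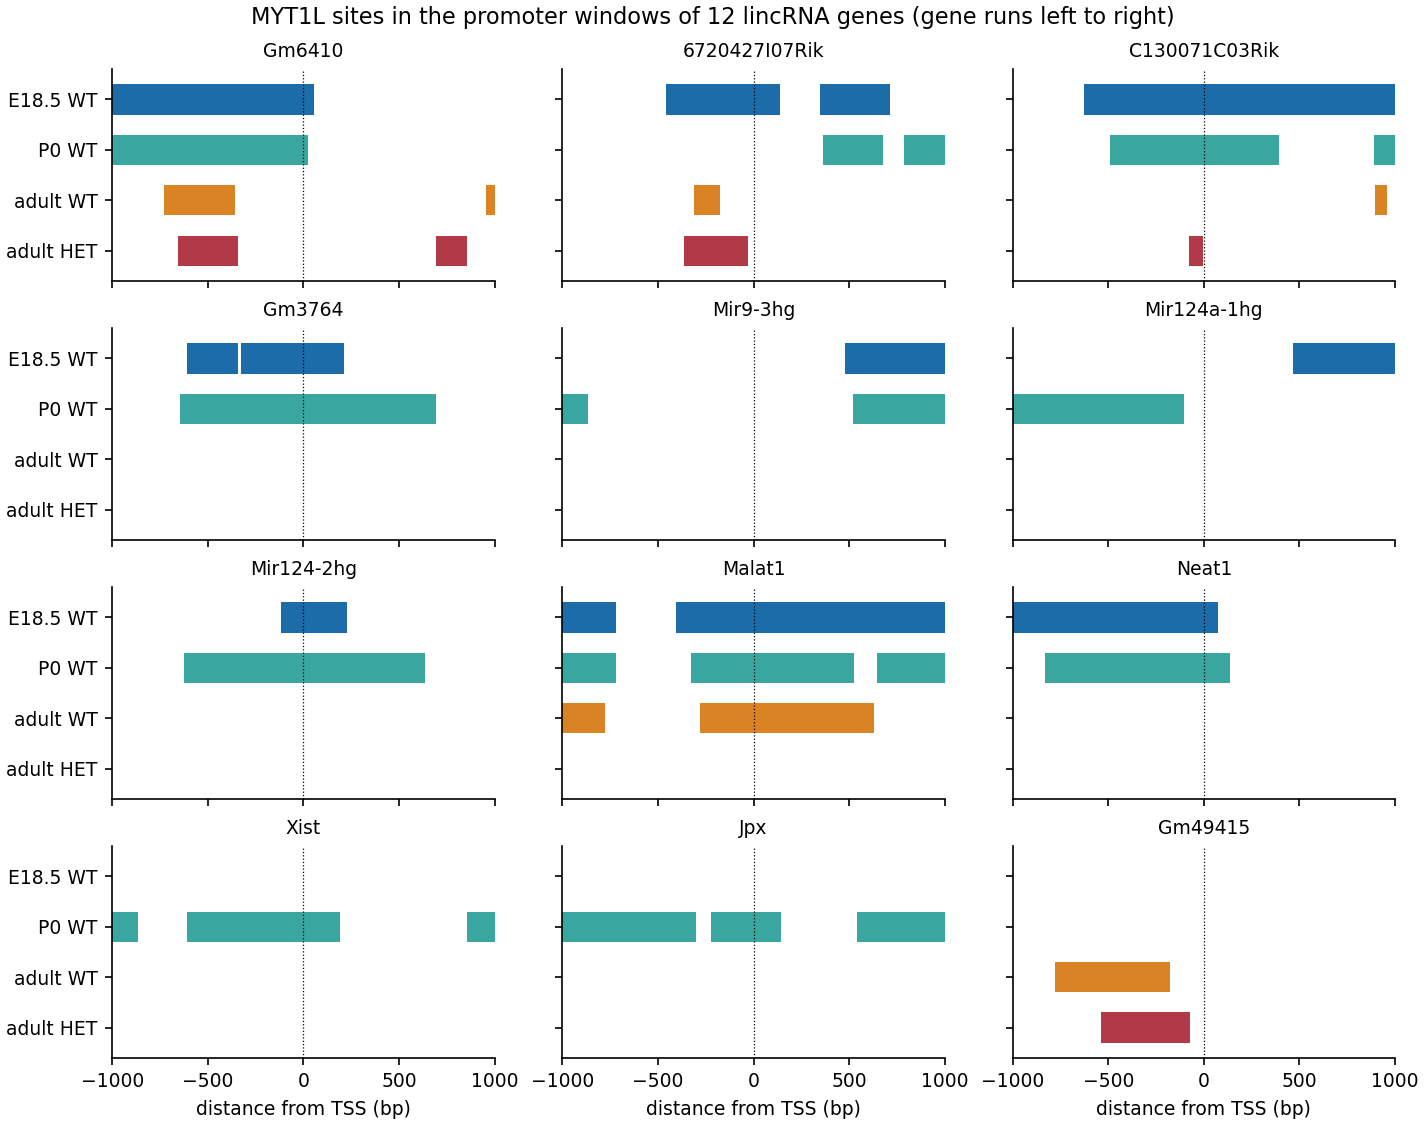
Positions of MYT1L sites (bars) from 1 kb upstream to 1 kb downstream of the TSS (x axis, bp, dotted line at the TSS) in each list (y axis) for 12 lincRNA genes. Sites of the E18.5 and P0 lists covered the TSS of Malat1 and C130071C03Rik, and Gm49415 had sites in the adult lists only.

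The most covered promoters of each list were mostly little-studied genes. At E18.5 C230035I16Rik, 7.16 kb from Abt1, was covered over its whole 2001 bp window by a site of 3617 bp, but over 186 bp at P0 and 678 bp in adult WT. C920006O11Rik, 6.86 kb from Gsta4, led at P0 with 1734 bp and had 1805 bp at E18.5. AC132957.1, near Sfxn3, followed with 1718 bp at E18.5 and 1567 bp at P0. None of these had a site in adult HET. Perinatal leaders with a site in adult WT included 5430416N02Rik (1565, 1496 and 323 bp at E18.5, P0 and adult WT), Gm46404 (1443, 1344 and 136 bp) and Gm40418 (1638, 1016 and 176 bp).

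Gm6410 was the most stable, with 1057 bp at E18.5, 1022 bp at P0, 414 bp in the adult WT and 478 bp in the adult HET list, the most of any lincRNA promoter there. Its CpG-high promoter on chromosome 8 (TSS at 4678462, plus strand) had a site at the same place in all 4 lists. Of the 10 most covered promoters 7 were CpG-low in each adult list, and those named here had no perinatal site. In adult WT they included Gm26804 with 1006 bp and Gm28641, 20.4 kb from Celf2, with 783 bp. Both adult genotypes had sites at Gm49415 (602 and 467 bp), Gm13982 near Rasgrp1 (382 and 297 bp) and Gm13749, whose nearest coding gene was Klf7 (664 and 79 bp). At Gm13749 the HET site, 183 to 261 bp downstream of the TSS, touched no WT site.

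The coding gene nearest to a bound lincRNA promoter was itself bound more often than that nearest to an unbound one in the perinatal lists. At 5 to 20 kb the intervals overlapped in both of these lists. The nearest protein-coding gene had an occupied promoter for 40.6% (32.9 to 48.7) of occupied members at E18.5, and for 24.1% (22.9 to 25.3) of the others. At P0 the shares were 48.9% (43.3 to 54.5) and 40.5% (39.1 to 41.9). At 5 to 20 kb from that gene they were 34.1% (20.1 to 50.6) and 22.4% (19.7 to 25.4) at E18.5, and 39.5% (28.4 to 51.4) and 37.7% (34.4 to 41.2) at P0. At 20 to 100 kb they were 40.3% (28.5 to 52.996) and 24.8% (22.9 to 26.8) at E18.5, and at P0 50.7% (42.2 to 59.2) and 41.8% (39.6 to 44.1), with intervals that overlapped at P0. Beyond 100 kb they were 46.2% (32.2 to 60.5) and 24.1% (22.4 to 26.0) at E18.5, and 53.4% (43.3 to 63.3) and 40.3% (38.3 to 42.5) at P0. At all distances together the adult WT shares were 11.6% and 9.99%, and the adult HET shares 9.83% (5.83 to 15.3) and 5.92% (5.28 to 6.61), with overlapping intervals. Some members share a nearest gene, so these counts are not independent.

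Members whose nearest coding gene encodes a listed neural transcription factor numbered 131, and 24 of them were occupied in some list, as were 11.1% of all members. At E18.5 11 were occupied, or 8.40% (4.27 to 14.5), beside 2.97% (2.52 to 3.48) of the other members. At P0 13 were, or 9.92% (5.39 to 16.4), beside 6.15% (5.50 to 6.85), with intervals that overlapped. In adult WT 4 were, or 3.05% (0.838 to 7.63), beside 2.83% (2.39 to 3.33). In adult HET 7 were, or 5.34% (2.18 to 10.7), beside 3.31% (2.83 to 3.85), and both adult pairs of intervals overlapped. Some of these members share a factor gene, so the counts are not independent. Near Pou3f3, a cortical POU factor, Gm9915 was covered over 1325 bp at E18.5 and 1278 bp at P0, and Gm28175 over 81 and 1175 bp. Near Nr2f1, a regulator of cortical area identity, Gm31946 was covered over 997 and 956 bp and Gm48402 over 920 and 810 bp. These 4 promoters, between 227 and 466 kb from the factor gene, had no site in the adult lists. Gm40477, 37.6 kb from the immediate early gene Fos, was covered over 1478 bp at E18.5 and had none in the other lists.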

How the data were processed

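CUT&RUN libraries of 8 groups, 12 with the MYT1L antibody and 12 with IgG, were grouped by their titles and descriptions. Some adult titles carry Myt2l or Myt3l and were taken as MYT1L, since their descriptions name that list. The authors ran the nf-core/cutandrun pipeline on mm10 and deposited 1 list of sites per MYT1L group, merged over libraries, whose other values are start and end positions with no count, score or p-value. Aligner, peak caller, threshold and use of IgG: not given in the sources used here. Depth was unknown.

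Genes were those of GENCODE on the main chromosomes. Windows, CpG classes (500 bp in steps of 5 bp), motif words and covered bases were computed with pysam 0.24.0, numpy 2.4.6, scipy 1.17.1, pandas 2.3.3 and matplotlib 3.10.9 under Python 3.11.15, and interval code was tested on simulated data. Named genes were members of 4 fixed lists, the 10 most covered of each list and those in all 4 lists. MiRNA hosts, neighbours of neural factors and other genes named were chosen after their values were seen. Members and lists were chosen with earlier results of these data known. No test was run, because each group has 1 merged list. Alternatives changed the overlap, window, TSS, coding distance, sites and motif window.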

Additional observations from a re-analysis of the deposited data

How the results depend on the processing

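The share of lincRNA promoters occupied rose and fell with the window, in the order E18.5, P0, adult WT, adult HET: with 500 bp on each side of the TSS it was 2.35%, 4.82%, 1.67% and 1.83%, and with 5 kb on each side 5.48%, 13.5%, 9.76% and 14.8%. With 5 kb adult HET was the highest list, whereas with 1 kb P0 was. All lincRNA genes, whatever their distance to a coding TSS, gave 5.62%, 9.87%, 3.98% and 3.997%. Sites wider than the median of their list gave 1.89%, 4.24%, 1.59% and 1.59%. A site midpoint within the window lowered E18.5 to 2.55%. A minimum of 100 covered bp lowered adult WT to 2.24% and adult HET to 1.69%, and sites under 50% repeat lowered adult HET to 2.59%. The motif within 250 bp of the midpoint was found at 40.6%, 32.3%, 30.8% and 33.7% of sites, beside 36.3%, 35.1%, 35.6% and 38.7% of all sites. The other alternatives moved shares by less than their counting interval. Coding promoters exceeded lincRNA promoters under each window and under the midpoint rule, by 1.43 to 10.1 times. When sites of different lists had to share a base, 172 of the 191 promoters remained in 2 or more lists. No paired analysis was possible because each list is merged over its libraries, and for the same reason no library could be left out. Site widths differ between lists and depth is unknown, so the part of depth in the differences between lists was not tested.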
